A study of Caenorhabditis elegans with 24 samples.

Results

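A group of 93 genes of the nematode Caenorhabditis elegans had abundant transcripts in the earliest embryos sampled and little left at the next stage. They were chosen by their levels. The mean had to be at least 100 CPM (counts scaled to a common total of 1000000 worm counts per library) at 60 min after the 4-cell stage, and the 60 min mean plus 1 at least 8 times the 120 min mean plus 1. The means of all stages from 180 to 500 min had to lie below 25% of the 60 min mean. The 93 members were 3.69% of the 2519 genes with at least 100 CPM at 60 min, out of 20687 worm genes in the table. Because these values chose the members, every contrast with 60 min is given as a description. Where counts of genes called in a test of 120 against 60 min are printed, nothing is read from them about the members.

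The series followed messenger RNA in wild-type N2 embryos, cut out of adults and staged at 60 min after the 4-cell stage and at 7 later times, of which the first was 120 min and the last 500 min. Each of the 8 stages had 3 samples of 50 pooled embryos, so each value is an average over embryos and over all their cells. No stage carried a mutation or a treatment. Messenger RNA was measured by CEL-Seq, which tags the 3′ end of polyadenylated transcripts, so that each transcript gives 1 tagged end whatever its length and levels of different genes are compared without a length correction. In whole embryos, fewer cells that hold a transcript and less of it per cell cannot be told apart. The labels do not say that the samples of a stage came from separate collections, so the p-values cover the spread between these samples, which may be technical.

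The early worm embryo starts with transcripts that the mother loads into the oocyte. Many of these encode RNA-binding proteins that set up the first cell fates, and much of this maternal stock is later cleared by deadenylation and decay. Transcription of the embryo's own genome begins within the first few cleavages in the somatic cells, and some of the first genes switched on, such as those of T-box, forkhead and bHLH transcription factors, are known to be expressed only briefly. A transcript that is high at 60 min can therefore be maternal, newly made or both, and these measurements do not separate the sources.

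Worm counts per library ranged from 172620 to 977908 with a median of 423142, and 1 count stood for 1.02 to 5.79 CPM. A count of 0 allows up to 3 counts, which stood for 3.07 to 17.4 CPM depending on the library, counting error only. Some libraries stood apart from their stage. The summed level of the early embryo genes oma-1, mex-5, pos-1, pie-1 and nos-2 was 700.0 CPM in replicate 2 of 410 min, against 20.9 and 23.3 CPM in the other libraries of that stage. In replicate 2 of 225 min the sum was 541 CPM, against 159 and 215 CPM. The 93 members moved the same way, with a sum of 1387 CPM in replicate 2 of 410 min against 467 and 486 CPM, and 1232 CPM in replicate 2 of 225 min against 508 and 643 CPM. In replicate 2 of 180 min the members summed to 1208 CPM, against 620 and 706 CPM. The 6 vitellogenin genes, markers of adult intestine, summed to between 0 and 1305 CPM with the highest value in replicate 1 of 60 min, and the sperm msp genes to at most 28.97 CPM. None of the 6 vitellogenin genes passed the test between 60 and 120 min, and their part in the members' levels was not tested. Applied without the 2 libraries of replicate 2 at 225 and 410 min, the rule returned the same 93 genes.

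The label of these genes as transcripts lost within the first hour held only as a strong reduction. The members together took 2.36, 2.58 and 2.65% of the worm counts in the 3 libraries of 60 min, and 0.132, 0.155 and 0.195% in those of 120 min. Their sum was 25286 ± 1523 CPM (SD, n = 3) at 60 min and 1607 ± 319 CPM at 120 min, 6.36% of the earlier level. It was 844 ± 318 CPM at 180 min and 429.7 ± 125 CPM at 500 min. No member was at 0 in all 3 libraries of 120 min, and the median member kept 6.37% of its 60 min level there and 1.95% at 180 min. The hour in question is the interval between the first 2 stages sampled, and nothing before 60 min was measured.

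The median level of the 93 genes was 231 CPM at 60 min, 12.6 CPM at 120 min, 4.35 CPM at 180 min and 1.35 CPM at 500 min. Their ratio of 60 min to 120 min, each plus 1, had a median of 14.8 and ran from 8.00 to 149. It reached 16 in 41 members and 50 in 6. Over all 2519 genes with at least 100 CPM at 60 min the median ratio was 1.36. In all 93 members the 3 libraries of 60 min lay above the 3 of 120 min, as they did in 49.4% of the 2519 genes, and in edgeR's quasi-likelihood test all 93 were lower, as were 21.1% of 8279 tested genes. Nothing is read from these counts, since the rule used the same contrast. Scaled to the ERCC spike-ins, RNA standards added to the samples, the median ratio was 16.7, and 92 of 93 members still had a ratio of at least 8. Worm counts per spike-in count were 21.3 ± 8.13 at 60 min and 17.7 ± 9.10 at 120 min (SD, n = 3), so the total differed by less than its spread between libraries.

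**Figure D1:**
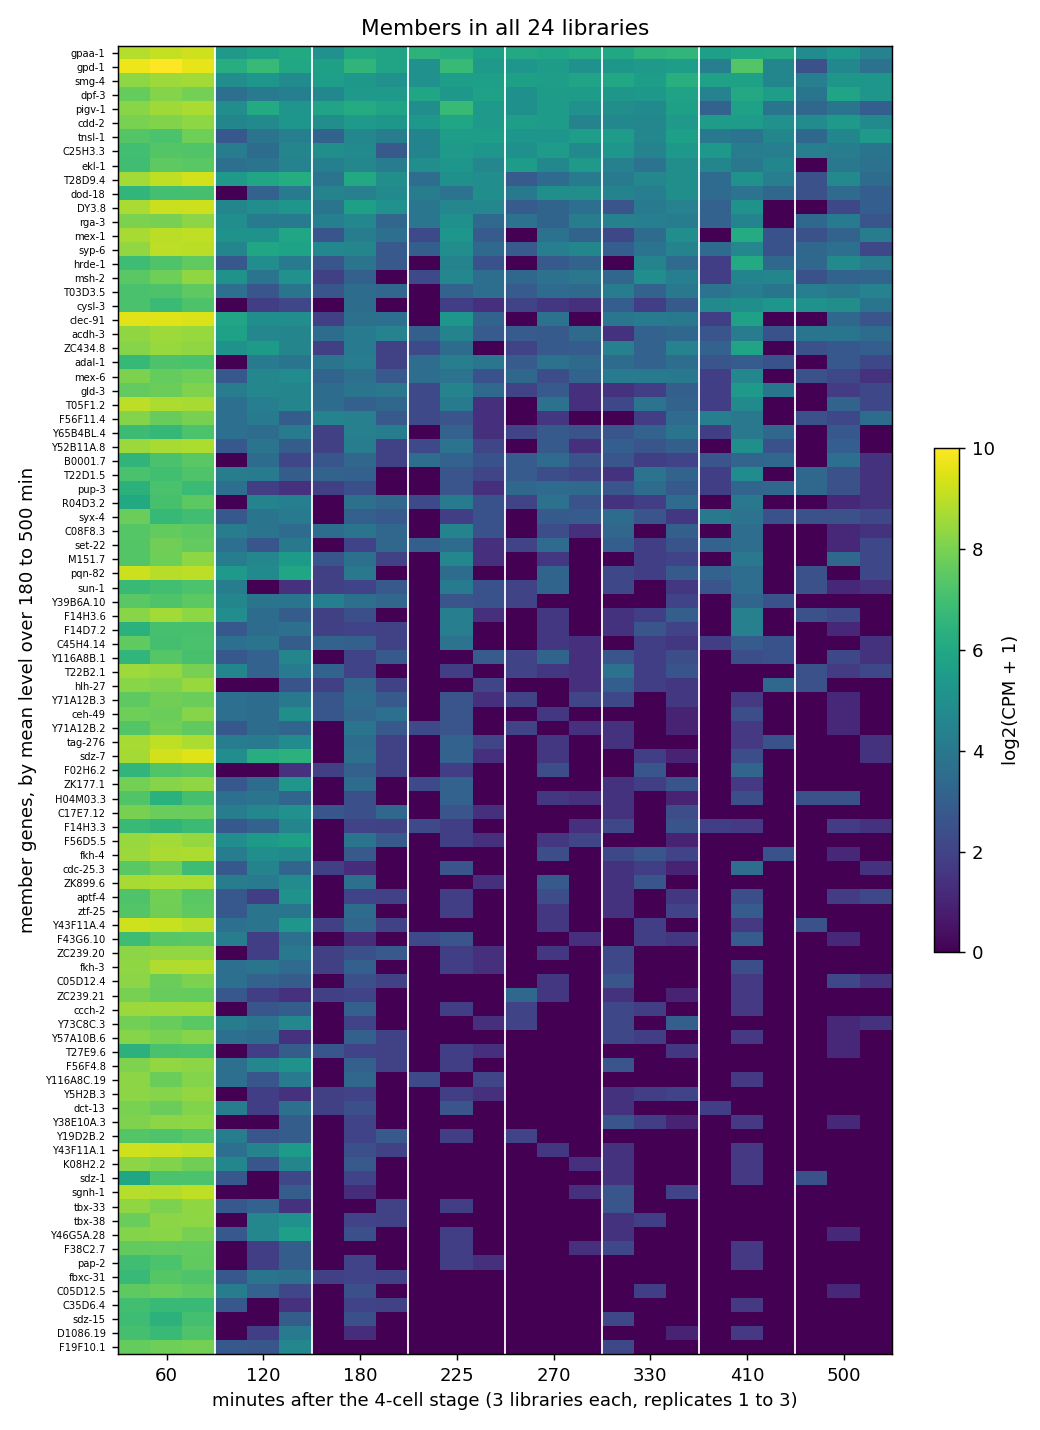
Level of each of the 93 genes (one row per gene, ordered by mean level over 180 to 500 min) in each of the 24 libraries, as log2(CPM + 1), with 3 libraries per stage between white lines. All rows are bright at 60 min and darker at 120 min, 61 members stay below 10 CPM at every later stage mean, and the second library of 225 and of 410 min is brighter than its neighbours in many rows.

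Among the 12 members highest at 60 min were genes of enzymes, the RNA regulator gene mex-1 and several genes known only by their sequence names. The highest was gpd-1 (WBGene00001683; WBcel235 chromosome II, 10394129 to 10395349, plus strand), an isozyme of the glycolytic enzyme glyceraldehyde-3-phosphate dehydrogenase. It stood at 866, 1029 and 798 CPM in the 3 libraries of 60 min and at 75.3, 106 and 61.5 CPM in those of 120 min. Its mean went from 898 ± 119 to 81.1 ± 22.96 CPM (SD, n = 3). Reads of gpd-1 may be shared with its near-identical relative gpd-4, so its level is uncertain. Next came clec-91, which encodes a C-type lectin domain protein, with 750.0, 742 and 705 CPM at 60 min and 57.9, 29.2 and 29.05 CPM at 120 min. The exons of clec-91 overlap a gene on the other strand, and the strand of counting is not given in the sources used here.

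A pair of genes of the glycosylphosphatidylinositol anchor pathway, which attaches proteins to the cell surface through a lipid, were members. The transamidase subunit gene gpaa-1 stood at 479, 553 and 622 CPM at 60 min and at 40.6, 53.2 and 66.6 CPM at 120 min. The mannosyltransferase gene pigv-1 stood at 301, 386 and 421 CPM at 60 min and at 28.97, 69.1 and 35.9 CPM at 120 min. In both genes every 60 min library lay more than 4-fold above every 120 min library. The ratio of pigv-1, 8.11, was the third from the threshold, and both genes kept a level of at least 10 CPM at every later stage mean.

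RNA regulators of the early embryo formed a small group. The gene mex-1, whose CCCH zinc finger protein is needed for correct germline and somatic cell fates, stood at 409.7, 500.4 and 533 CPM at 60 min and at 34.8, 34.6 and 59.8 CPM at 120 min. Another CCCH gene, mex-6, which acts with mex-5 in polarity of the zygote, had 261, 201 and 219.8 CPM and then 5.79, 23.9 and 27.3 CPM. For gld-3, a KH domain partner of the cytoplasmic poly(A) polymerase GLD-2, the values were 192, 213 and 271 CPM and then 17.4, 23.9 and 22.2 CPM. The ratios of the 3 genes were close to each other, at 10.9, 11.4 and 10.2. Exons of mex-1 overlap a gene on the opposite strand, so its level is uncertain. A further CCCH gene, ccch-2, had a ratio of 73.5, with 363, 369.8 and 377 CPM at 60 min and 0, 5.32 and 6.83 CPM at 120 min. Its level at 120 min rested on 6 counts in all.

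Also in this class were smg-4, a homologue of the nonsense-mediated decay factor UPF3, the poly(A) polymerase gene pap-2, the poly(U) polymerase gene pup-3, and a pair of genes of small RNA pathways. The first, smg-4, stood at 361 ± 41.6 CPM at 60 min and 31.2 ± 5.30 CPM at 120 min. The Tudor protein gene ekl-1 stood at 159 ± 32.5 and 15.1 ± 4.73 CPM, and hrde-1, which encodes a nuclear Argonaute of the germline, at 153 ± 34.9 and 17.4 ± 11.7 CPM (SD, n = 3). Of these, smg-4 remained measurable throughout, with a mean between 31.7 and 62.1 CPM at all stages from 180 to 500 min, while pap-2 had a mean over those stages of 0.522 CPM. The highest later mean of ekl-1, hrde-1 and pup-3 was 22.9, 17.7 and 8.77% of the 60 min mean.

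Several transcription factor genes were members, and hlh-27 and tbx-33 were among the 8 with the largest ratio. The bHLH gene hlh-27 (chromosome II, 5539075 to 5540213, minus strand) of the REF-1 family, known for Notch-dependent expression in the early embryo, stood at 297, 275 and 354 CPM at 60 min and at 0, 0 and 5.13 CPM at 120 min. The T-box gene tbx-33 stood at 327, 259 and 323 CPM and then at 5.79, 7.98 and 1.71 CPM. Another T-box gene, tbx-38, which acts with tbx-37 in making the anterior pharynx, stood at 211, 309 and 316 CPM and then at 0, 23.9 and 32.5 CPM. The 120 min libraries of tbx-38 thus disagreed more than those of tbx-33, and exons of both hlh-27 and tbx-38 overlap a gene on the opposite strand. The adjacent forkhead genes fkh-3 and fkh-4 had means of 412 ± 76.98 and 409 ± 42.9 CPM at 60 min and of 11.7 ± 1.52 and 24.1 ± 6.08 CPM at 120 min. They are closely related genes with annotated proteins of 421 residues each, so counts may be split between them. Other members of this class were the ONECUT homeobox gene ceh-49 (243 ± 43.4 to 17.7 ± 11.4 CPM), the AP-2 gene aptf-4 (188 ± 44.1 to 14.2 ± 17.4 CPM) and the zinc finger gene ztf-25 (189 ± 34.8 to 10.9 ± 4.44 CPM).

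The members named sdz, for zygotic transcripts that depend on the transcription factor SKN-1, were sdz-1, sdz-7 and sdz-15. The most abundant, sdz-7, stood at 399.8, 645 and 729.7 CPM at 60 min and at 28.97, 74.4 and 85.4 CPM at 120 min. It varied most among the 12 highest members at 60 min, with an SD of 171 CPM, and its lowest library was replicate 1 at both stages. The levels of sdz-1 and sdz-15 were 116 ± 49.3 and 110.4 ± 22.9 CPM at 60 min and 3.07 ± 2.91 and 2.28 ± 3.95 CPM at 120 min.

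Many of the most abundant members and of those with the largest ratios have no name beyond their sequence name or domain. The gene sgnh-1 (chromosome IV, 4889913 to 4890686, plus strand) had the largest ratio, 149, with 472, 466 and 525 CPM at 60 min and 0, 0 and 6.83 CPM at 120 min. Y5H2B.3 stood at 304, 291 and 337 CPM and then at 0, 2.66 and 1.71 CPM. Y38E10A.3 stood at 268, 303 and 312 CPM and then at 0, 0 and 6.83 CPM. In each of these the whole 120 min level rested on 4 counts or fewer in 3 libraries. F02H6.2 had 95.8, 157 and 168 CPM at 60 min and 0, 0 and 1.71 CPM at 120 min, a single count. ZC239.21 had 248, 205 and 199.6 CPM and then 5.79, 2.66 and 1.71 CPM.

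With so few counts the size of the largest ratios is poorly bounded. Taken over pooled libraries without the added 1, the ratio of sgnh-1 was 140.02 with a 95% exact binomial interval of 54.4 to 515, counting error only. For Y5H2B.3 it was 178 (49.04 to 1476), for hlh-27 119 (40.5 to 579), for F02H6.2 169 (30.03 to 6711) and for ZC239.21 79.97 (27.1 to 389.9). The intervals overlap, so the order of these genes by ratio is not resolved.

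Further genes known mainly by their sequence names were among the 12 highest at 60 min. Y43F11A.1 stood at 624, 593 and 532 CPM at 60 min and at 11.6, 21.3 and 42.7 CPM at 120 min. Its neighbour Y43F11A.4 stood at 624, 577 and 499 CPM and then at 11.6, 13.3 and 37.6 CPM. The levels of this pair were nearly equal in every 60 min library, and their annotated proteins are of equal length, 189 residues, so counts may be split between near-identical copies. DY3.8 stood at 429.5, 587 and 599 CPM and then at 23.2, 29.2 and 35.9 CPM. T28D9.4 stood at 393, 531 and 633 CPM and then at 40.6, 58.5 and 71.8 CPM. T05F1.2 stood at 515, 442 and 418 CPM and then at 11.6, 18.6 and 22.2 CPM. In none of the 3 did a library of 120 min come near one of 60 min. The glutamine- and asparagine-rich protein gene pqn-82 stood at 605, 484 and 509.8 CPM and then at 40.6, 26.6 and 59.8 CPM.

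**Figure D2:**
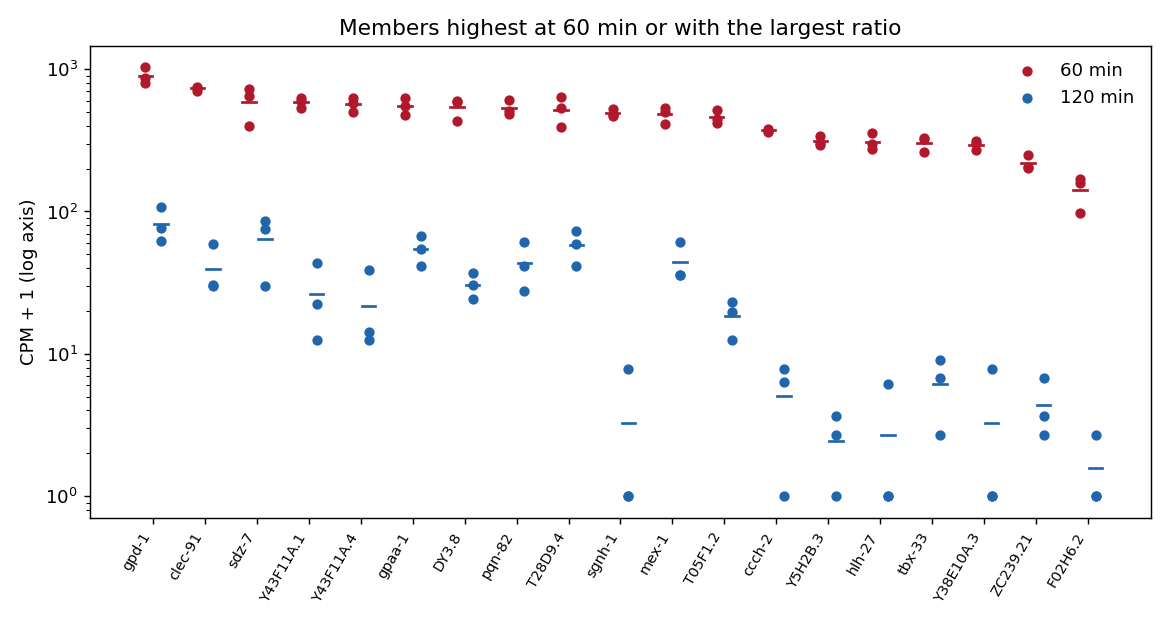
CPM + 1 on a log axis in each of the 3 libraries of 60 min (red) and 120 min (blue) for the 12 members highest at 60 min and the members with the 8 largest ratios, 19 genes in all, with bars at the stage means. In each gene the 60 min points lie above all 120 min points, and for sgnh-1, hlh-27, Y38E10A.3 and F02H6.2 2 of 3 libraries of 120 min hold no count.

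The remaining members covered meiotic and cell division genes, metabolism and membrane proteins. The synaptonemal complex gene syp-6 stood at 450.2 ± 101 CPM at 60 min and 45.4 ± 19.4 CPM at 120 min, and the mismatch repair gene msh-2 at 239 ± 77.8 and 26.8 ± 11.8 CPM. The RhoGAP gene rga-3, which restrains cortical contractility in the zygote, stood at 272 ± 31.7 and 20.7 ± 7.21 CPM. The phosphatase gene cdc-25.3 stood at 174 ± 54.3 and 11.9 ± 8.26 CPM, with exons that overlap a gene on the opposite strand. Further members with known roles were the acyl-CoA dehydrogenase gene acdh-3, the cytidine deaminase gene cdd-2, the dipeptidyl peptidase gene dpf-3, the syntaxin gene syx-4, the nuclear envelope gene sun-1, the SET domain gene set-22 and the F-box gene fbxc-31. Their 60 min means lay between 126 CPM (sun-1) and 349 CPM (acdh-3).

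The same measure was read in libraries that took no part in choosing. The rule was applied to 2 of the 3 replicate series and the chosen genes were examined in the series left out, which is a description with no p. Without replicate 1 the rule chose 86 genes, and 75 of them (87.2%) were at least 8-fold lower at 120 min in replicate 1, against 5.94% of all genes with at least 100 CPM in the other series. Without replicate 2 it chose 94 genes, of which 80 (85.1%) reached 8-fold in replicate 2, against 4.65%. Without replicate 3 it chose 97 genes, of which 77 (79.4%) reached 8-fold in replicate 3, against 4.09%. The median ratio in the left-out series was 16.01, 16.4 and 12.8. The smallest ratios of chosen genes were 3.79 in replicate 1 (ccch-5), 4.15 in replicate 2 (gsy-1) and 2.15 in replicate 3 (drh-1). These 3 genes are not among the 93. At 120 min, 51 of the 93 members (54.8%) were highest in replicate 3, against 40.1% of the other genes with at least 100 CPM at 60 min. That library was the deepest of its stage, with 585239 worm counts.

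**Figure D3:**
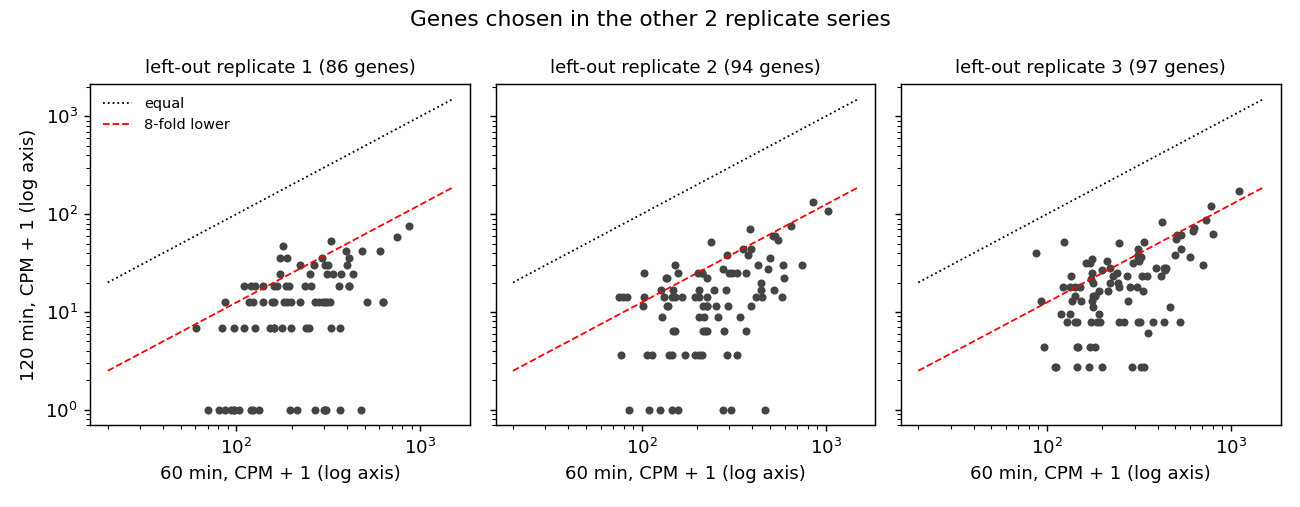
Genes chosen in 2 replicate series, shown in the series left out, with the level at 60 min on the x axis and at 120 min on the y axis, both as CPM + 1 on log axes. The dotted line marks equal levels, and 75 of 86, 80 of 94 and 77 of 97 points lie on or below the dashed line of an 8-fold lower level.

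Around the thresholds the levels ran on without a gap. Just inside the ratio of 8 were F14H3.3 (8.00), M151.7 (8.01), pigv-1 (8.11), C25H3.3 and hrde-1 (both 8.37), and just outside were clec-88 (7.96), trcs-1 (7.90), F10G2.4 (7.88), cnp-3 (7.87) and glod-4 (7.83). Just above 100 CPM at 60 min were F14H3.3 at 103 CPM, sdz-15, pup-3, C35D6.4 and sdz-1, and just below were Y49F6B.9 at 99.0 CPM, B0416.4, T12G3.6, T12A2.3 and F02H6.3. The members nearest the limit on later levels were cysl-3, C25H3.3, tnsl-1, ekl-1 and dod-18, whose highest later mean was 21.4 to 23.5% of the 60 min mean. Those nearest outside it were inft-2, F55C5.10, athp-2, cua-1 and T07C4.3, at 28.05 to 37.6%.

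A further 17 genes met the first 2 criteria and failed the limit on later stages. At some later stage each was again above 25% of its 60 min mean. The means reached 245 CPM at 410 min and 287 CPM at 500 min for erp-44.1, 686 CPM at 500 min for nlp-36, and 1656 CPM at 410 min for C09F5.1, from 120 min means of 49.6, 34.6 and 9.27 CPM. The leucine-rich repeat gene egg-6, on the eggshell list, was one of them, with 132 ± 16.2 CPM at 60 min, 9.08 ± 8.56 CPM at 120 min and a mean of 305 CPM at 410 min.

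Members were found in some of the known gene groups of the early embryo and not in others. For comparison, 3.69% of all 2519 genes with at least 100 CPM at 60 min were members. The groups hold few genes at that level, and no test was made of them. Of 39 maternal and oocyte regulators, 23 had at least 100 CPM at 60 min and 3 were members (mex-1, mex-6 and gld-3). In the edgeR test of 120 against 60 min, 24 of 34 tested regulators were lower and 2 higher, against 21.1% lower and 22.6% higher of all tested genes. The closest relative of mex-6, mex-5, stood at 447 ± 68.1 CPM and then at 97.2 ± 25.5 CPM, a ratio of 4.57, and the pumilio gene puf-3 and the RNA-binding gene spn-4 had ratios of 2.05 and 1.84. Among 65 measured early zygotic genes of somatic cells, 25 had at least 100 CPM at 60 min, and 6 of these were members (fkh-3, fkh-4, hlh-27, sdz-1, sdz-15 and tbx-38). In this group 23 of 50 tested genes were lower at 120 min and 18 were higher. All list counts include the members, whose direction the rule fixed.

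Some relatives of these members fell short only of the minimum level. The levels of hlh-25, a REF-1 family gene like hlh-27, were 57.8 ± 14.8 CPM at 60 min and 0 in all 3 libraries of 120 min. For tbx-37, the partner of tbx-38, the means were 78.3 ± 17.9 and 3.96 ± 1.64 CPM, a ratio of 16.01. The endoderm GATA factor gene end-3 stood at 53.9 ± 21.7 CPM and then at 0 in all 3 libraries, while its relative end-1 stood at 52.6 ± 6.35 and 83.1 ± 21.7 CPM. The early zygotic gene pes-10 was more abundant than any of these, at 668 ± 123 CPM, and fell short of the ratio, at 5.01.

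Other groups held few members or none, as small groups can when 3.69% of all 2519 genes at 100 CPM or more are members. These counts are therefore not read as results about the groups. Of all tested genes 21.1% were lower and 22.6% higher at 120 min. Of 40 measured deadenylation and decay genes, 22 were at 100 CPM or more and 1 (smg-4) was a member, with 15 of 36 tested genes lower and 4 higher at 120 min. Of 41 small RNA pathway genes, 17 were at that level and 2 (ekl-1 and hrde-1) were members, with 17 of 33 lower and 6 higher. Of 58 cell division genes, 40 were at that level and 1 (cdc-25.3) was a member, with 9 of 52 lower and 11 higher. None of the 38 measured meiotic chromosome genes on the list was a member. Of these 4 were at 100 CPM or more (rec-1, hal-2, rad-51 and him-17), with ratios of 5.65, 5.24, 1.73 and 1.50, and 19 of 26 tested were lower and 0 higher. The member syp-6 was not on that list. There was also no member among 20 Skp1-related genes (12 at that level, 9 of 16 tested higher and 1 lower), 21 cullin ligase genes (15 at that level, 5 of 21 higher and 6 lower) and 23 eggshell and egg activation genes (8 at that level, 7 of 15 lower and 2 higher). None of the 42 measured sperm genes reached 100 CPM or entered the test.

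By family, members were 2 of 4 tbx genes, 2 of 3 fkh genes, 1 of 3 hlh genes, 3 of 13 sdz genes, 1 of 8 ceh genes, 1 of 6 ztf genes and 1 of 5 fbxc genes with at least 100 CPM at 60 min. None of the 18 fbxb genes, 12 skr genes or 9 histone genes at that level was a member. Among all 2519 genes at that level 3.69% were members, so the absence of members from families of this size is not read as a result. These are counts over few genes, and no test was made of them.

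The structure of the genes differed from that of other genes with at least 100 CPM at 60 min, a property the rule did not use. Of 91 members annotated as protein coding, 14 (15.4%) had a single exon, against 2.15% of 2417 other coding genes at that level and 2.82% of all matched coding genes. A total of 50.5% had at most 3 exons, against 26.7 and 26.2%. The median was 3 exons against 5, and the median protein length was 316 residues against 376. No 3′ UTR was annotated for 20.9% of coding members, against 4.59% of the other genes at that level. All 14 single-exon members, which include the poly(A) polymerase gene pap-2, Y5H2B.3, Y38E10A.3, dct-13 and both ZC239.20 and ZC239.21, lacked one. With only a sequence name were 53.8% of members, against 23.7% of the others. Genes are not replicates, and these shares are given without a test.

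The number of exons went with the level that remained. Members with 1 exon had a median of 0.890 CPM over the stages from 180 to 500 min (0.260 to 1.67 CPM, n = 14). For 2 or 3 exons the median was 1.51 CPM (n = 32), for 4 to 7 exons 4.51 CPM (n = 31), and for 8 or more exons 12.8 CPM (4.59 to 59.3 CPM, n = 14). The single-exon median lay below the level of 1 count in any library (1.02 CPM or more). At 120 min the median share left of the 60 min level, which the rule used, was 2.76, 6.00, 7.94 and 8.50% in the same order. Median protein length also rose in that order, at 203, 218, 399 and 685 residues, so exon number and length cannot be told apart. All 14 single-exon members also lacked an annotated 3′ UTR, and the part of that in their levels was not tested. The members with 8 or more exons included gpaa-1, dpf-3, pigv-1, tnsl-1, ekl-1, rga-3, syp-6, msh-2 and gld-3. Across 91 genes measured in the same 18 libraries, the Spearman correlation of exon number with the late level was 0.66, given as a description across genes that are not independent. In the 2417 other genes, whose late levels the rule did not limit, it was -0.074. Among members the 60 min level itself had a correlation with the late level of 0.14.

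**Figure D4:**
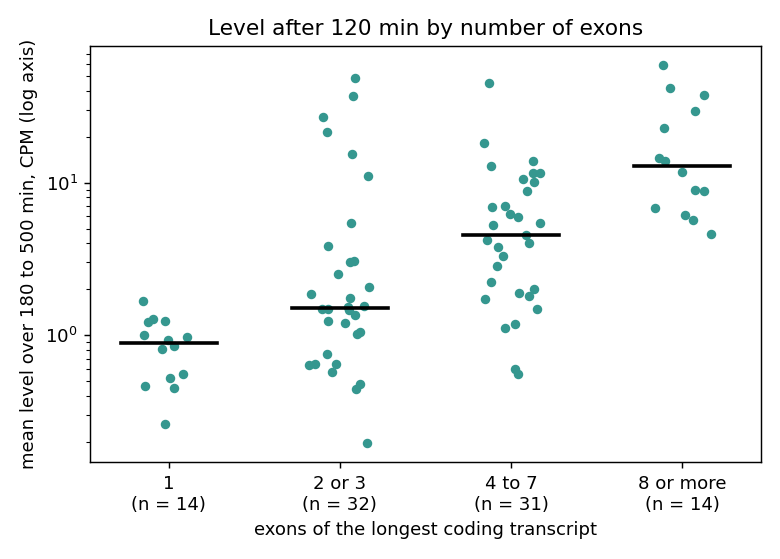
Mean level over the stages from 180 to 500 min (CPM, log axis) of the 91 coding members, grouped by number of exons, with 1 point per gene and a bar at each median. All 14 single-exon genes lie at or below 1.67 CPM and all 14 genes with 8 or more exons at or above 4.59 CPM, with overlap between the groups in between.

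Members lay on all 6 chromosomes. Chromosome II held 26 (27.96%), against 18.8% of the other genes with at least 100 CPM at 60 min, and chromosome III held 9 (9.68%), against 20.96%. Chromosomes I, IV, V and X held 19, 15, 18 and 6. A total of 18 members formed 9 pairs within 20 kb of each other. The closest pair, ZC239.20 and ZC239.21, lay 415 bases apart on opposite strands of chromosome II (WBcel235, 3206065 to 3206523 and 3206939 to 3207388), and each has a single exon. Levels of this pair were 324 and 217 CPM at 60 min and 6.01 and 3.39 CPM at 120 min. The gene ccch-2 lay 810 bases from F38C2.7 on chromosome IV, and hlh-27 lay 9432 bases from ZK177.1 on chromosome II. The other pairs were Y43F11A.1 and Y43F11A.4, C05D12.4 and C05D12.5, dct-13 and Y116A8C.19, F14H3.3 and F14H3.6, fkh-3 and fkh-4, and the annotated pseudogenes Y71A12B.2 and Y71A12B.3. Another member was the directly flanking gene for 10 of 93 members (10.8%), against 20 of 2419 other genes at that level (0.827%). Exons of 15 members overlapped another gene, 12 of them on the opposite strand only, so those counts are uncertain.

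After 120 min most members stayed low, and the rule set only an upper limit there. A total of 61 members were below 10 CPM at every stage mean from 180 to 500 min, and 28 were at 0 in all 3 libraries of 500 min. At or above 10 CPM at every one of these stages were gpd-1, gpaa-1, T28D9.4, pigv-1, smg-4, cdd-2, dpf-3, tnsl-1 and C25H3.3. In 27 members some later mean exceeded the 120 min mean. The level of gpaa-1 was 53.5 ± 13.05 CPM at 120 min, 81.5 ± 17.97 CPM at 330 min and 29.3 ± 9.21 CPM at 500 min, and that of dpf-3 was 15.4 ± 3.63 CPM at 120 min and 35.7 to 49.5 CPM in the later means (SD, n = 3).

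Changes among the later stages were tested with edgeR's quasi-likelihood method over all 24 libraries and 8279 genes, with Benjamini-Hochberg adjustment. All 93 members entered the test through their 60 min counts, and 15 would have passed the filter on the 18 later libraries alone. Over the 6 stages from 180 to 500 min, 17 members changed, and 71.8% of all tested genes did. Nothing is read from the members' share, because 78 members would not have passed the filter on the later libraries and the rule capped the later levels. The lowest adjusted p was that of cysl-3 (1.59e-08), followed by Y39B6A.10, gld-3, F56F11.4, F56D5.5, DY3.8, C17E7.12, T03D3.5, pigv-1 and ceh-49 (at most 0.0108). Without the replicate 2 series 11 members passed, and without the replicate 3 series 8 passed, of which 7 were among the 17 in both cases. Of the 17, 3 (cysl-3, Y39B6A.10 and F56F11.4) passed under all 13 alternatives, none of which filtered genes on the later libraries alone. F56D5.5 and DY3.8 did not pass without the replicate 2 series (adjusted p = 0.563 and 0.258), and ceh-49, C17E7.12 and pigv-1 did not pass without the replicate 3 series (0.110, 0.0896 and 0.0828). T03D3.5 did not pass without any 1 of the 3 series (0.0808 to 0.118), with library size alone (0.151), with spike-in totals (0.357) or without a filter (0.0535). For gld-3 the adjusted p was 0.290 without the replicate 2 series, 0.0805 with spike-in totals and 0.0642 without the libraries of replicate 2 at 225 and 410 min, and for pigv-1 it was 0.0515 with spike-in totals.

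From 180 to 500 min 3 members rose, and 39.1% of tested genes were higher, a share not compared for the reason given above. The level of cysl-3, a cysteine synthase-like gene, was 0, 10.5 and 0 CPM in the 3 libraries of 180 min and 32.4, 29.96 and 13.97 CPM at 500 min. The stages did not overlap, and the log2 change was 2.80 with an approximate SE of 0.55 (adjusted p = 3.13e-05, edgeR). Its rise fell between 330 and 410 min, from 7.02, 2.63 and 6.14 CPM to 26.1, 30.2 and 37.3 CPM (log2 change 2.68, adjusted p = 0.000117), and with spike-in totals as library sizes that step did not pass (1.78, adjusted p = 0.0912). T03D3.5 stood at 5.37, 10.5 and 8.82 CPM at 180 min and at 18.5, 14.98 and 20.9 CPM at 500 min (log2 change 1.55, SE 0.47, adjusted p = 0.00414). The change of tnsl-1 was smaller, from 8.05, 24.01 and 17.6 CPM to 9.26, 23.04 and 41.9 CPM, and its libraries overlapped (log2 change 1.16, SE 0.43, adjusted p = 0.0154). Exons of cysl-3 and tnsl-1 overlap a gene on the opposite strand. Scaled by library size alone, by spike-ins, or without the replicate 3 series, 1 of the 3 passed, which was cysl-3.

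From 180 to 500 min 22 members fell, and 31.1% of tested genes were lower, with nothing read from the shares here either. Of these 22, 13 were at 0 in all libraries of 500 min and 19 had under 30 counts at 180 min. The level of pigv-1 was 56.3, 70.5 and 55.9 CPM at 180 min and 9.26, 13.8 and 6.98 CPM at 500 min (log2 change -1.98, SE 0.50, adjusted p = 0.000706). The level of Y39B6A.10 went from 18.8, 12.003 and 8.82 CPM to 0 in all 3 libraries (adjusted p = 0.000257). Both passed under all 13 alternatives tried, as did C17E7.12, with 5.37, 4.50 and 8.82 CPM and then 0 in all 3 libraries (adjusted p = 0.00491). The 180 min level of Y39B6A.10 rested on 18 counts and that of C17E7.12 on 8. None of the alternatives filtered genes on the later libraries alone, so passing them all is not read as support for calls on so few counts. Others lower at 500 min were DY3.8 (32.3 to 3.48 CPM), gpd-1 (66.6 to 13.7 CPM), gld-3 (12.98 to 1.93 CPM), Y65B4BL.4 (13.3 to 1.92 CPM), ceh-49 (8.71 to 0.384 CPM), and at 500 min without a count fkh-3, ztf-25, ccch-2, F02H6.2 and fbxc-31. Without the replicate 2 series 6 members were lower, without the replicate 3 series 12, and with DESeq2 7. Replicate 2 of 180 min was the library of its stage with the highest sum of members, as given above, and 17 of the 22 had their highest 180 min level in it. For 5 of them (ccch-2, ztf-25, ZK177.1, ZK899.6 and Y116A8C.19) all 180 min counts, 5 to 8 per gene, were in that library, so that without the replicate 2 series they stood at 0 at both stages and had no call.

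Few single steps passed, and nothing is read from the shares of all tested genes here either. Of 93 members, 15 would have passed the filter on the later libraries alone. Median member levels were 4.35, 2.48 and 1.38 CPM at 180, 225 and 270 min, so few members had counts enough for a call. From 180 to 225 min edgeR called 0 members, against 3.08% of tested genes higher and 2.56% lower. It also called 0 members from 225 to 270 min, against 8.21% higher and 4.13% lower. Between 270 and 330 min there were again 0, against 6.2% higher and 1.52% lower. These shares are at an adjusted p below 0.05. At an unadjusted p under 0.05 there were 15, 5 and 7 members. The shares of all tested genes at that limit are not given. DESeq2 called 0 members in each of these 3 steps. From 330 to 410 min cysl-3 and gld-3 were higher, against 18.4% of tested genes, and T22B2.1 was lower, against 11.4%. From 410 to 500 min gld-3, gpd-1 and Y39B6A.10 were lower, against 7.39%. With the replicate number as a block 6 members were lower in this step, the same 3 and DY3.8, F14D7.2 and ZC434.8. The values of gld-3 at 410 min were 2.61, 41.1 and 14.01 CPM and those of gpd-1 were 18.3, 159.9 and 23.3 CPM, so that both means rested on replicate 2, the library with the high sum of early embryo genes. Without replicate 2 of 225 and 410 min, the log2 change of gld-3 from 330 to 410 min was 0.91 (adjusted p = 0.521) in place of 2.44 (adjusted p = 0.00226). From 410 to 500 min it was then -1.31 (adjusted p = 0.438) in place of -2.84 (adjusted p = 0.00343), and that of gpd-1 was -0.14 (adjusted p = 0.972) in place of -1.95 (adjusted p = 0.0351). The log2 change of Y39B6A.10 was -3.13 (adjusted p = 0.340) in place of -4.42 (adjusted p = 0.0388). T22B2.1, at 0 in all 3 libraries of 410 min, had nearly the same change without these libraries, -4.66 in place of -4.64, with an adjusted p of 0.0830 in place of 0.0196, while cysl-3 kept its call (log2 change 2.74, adjusted p = 0.000967).

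**Figure D5:**
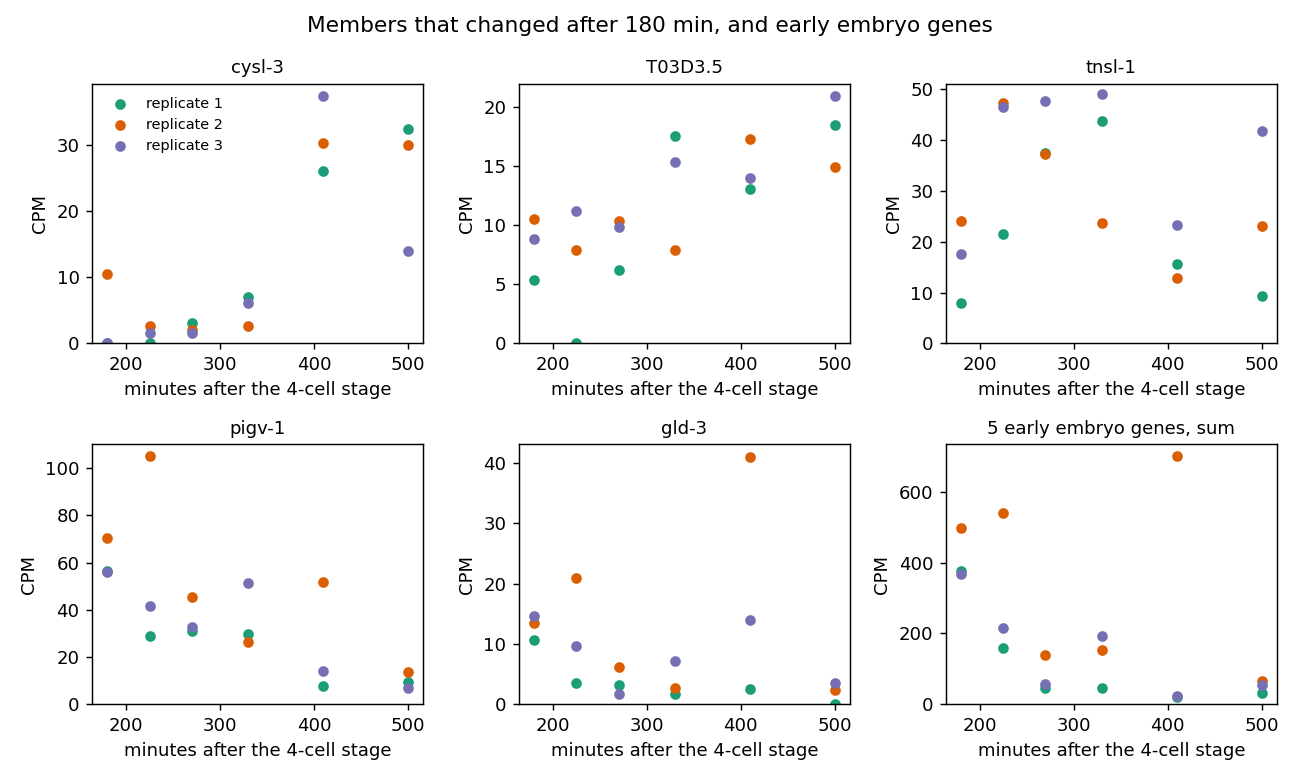
CPM in each library from 180 to 500 min for cysl-3, T03D3.5, tnsl-1, pigv-1 and gld-3, and the summed CPM of the early embryo genes oma-1, mex-5, pos-1, pie-1 and nos-2, with 1 colour per replicate number. All 3 libraries of cysl-3 at 410 and 500 min lie at 13.97 CPM or more, and replicate 2 of 410 min stands at 41.1 CPM for gld-3 and at 700.0 CPM for the early embryo sum.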

How the data were processed

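The deposited table held raw counts per gene, with no normalization, which the authors made with HTSeq according to the submitters' processing notes. Which aligner, build and strand setting they used is not given in the sources used here. All 24 value columns were used. Of 20779 rows, 92 were ERCC spike-ins, left out of library sizes, and 20086 of 20687 worm genes matched the WBcel235 annotation by sequence name, among them all 93 members. No value exceeded 1023, close to the 1024 forms of a 5-base identifier, but the labels state no identifier counting, and 1 member exceeded 500 counts in a library.

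CPM in the text are counts scaled to a total of 1000000 worm counts, without TMM factors. Tests used edgeR 4.0.16 in R 4.3.3 (filterByExpr, minimum count 10, TMM factors of 0.77 to 1.19, a robust quasi-likelihood fit with stage as factor), which kept 8279 genes and left 16 residual degrees of freedom. Genes passed at a Benjamini-Hochberg adjusted p below 0.05. The SE is the log2 change divided by the root of F. Tests were two-sided. They were also run on simulated data, and the outcome is not given here. Nothing is read from that check for calls on few counts. Of the 22 members lower at 500 than at 180 min, 19 had under 30 counts at 180 min. DESeq2 1.42.0 was an alternative. Replicate numbers come from the labels, which give no shared source. Of 15 pairs of stages from 180 to 500 min, 6 had correlations of same-numbered deviations above 0.1 in every replicate pair (all correlations ranged from -0.189 to 0.438). The consecutive stages 410 and 500 min (0.107 to 0.207) were among them, and 180 and 500 min were not.

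The members and gene lists were chosen with earlier results of these data known, so agreement with them is no independent support. Described in full were the 12 members highest at 60 min and the 8 with the largest ratio. Also named were list members, the 5 genes on each side of each threshold, the 10 members of lowest p after 180 min, up to 3 called members per step and direction, and neighbouring pairs. Other members, their relatives and genes that failed the later limit were named after their values were seen.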

Additional observations from a re-analysis of the deposited data

How the results depend on the processing

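The rule gave 93 genes. It gave 169 with a ratio of 4, 41 with a ratio of 16 and 54 with a minimum of 200 CPM. Other settings gave 79 to 127 genes, including 94 with TMM scaling (92 shared with the 93), 105 with spike-in scaling (89 shared) and 86 to 97 without 1 replicate series (81 to 87 shared). Settings chosen after seeing the data gave 87 without the 4 libraries with most vitellogenin and 98 with counts corrected for identifiers. Members changing over 180 to 500 min numbered 17. There were 28 without a filter and 8 to 20 without 1 replicate series. Those higher at 500 than at 180 min numbered 3, but 1 with library size alone, 1 with spike-in totals and 1 to 4 without 1 replicate series. Those lower numbered 22, but 36 with library size alone, 7 with DESeq2 and 6 to 28 without 1 replicate series. No alternative filtered genes on the later libraries alone. Of 25 members named for that contrast, 4 passed under all 13 alternatives (cysl-3, pigv-1, C17E7.12 and Y39B6A.10), and 0 changed direction. The causes were not tested. With the replicate number as a block, 22 members changed, 5 were higher and 25 lower. Same-numbered deviations of 180 and 500 min correlated at 0.060, 0.17 and -0.068, and those of 410 and 500 min at 0.107 to 0.207. The latter pair was among the 6 of 15 pairs of later stages with every correlation above the limit of 0.1. Differently numbered samples were not compared, so whether the numbers pair the samples is not settled. From 410 to 500 min the block moved the count from 3 to 6 lower. From 330 to 410 min it moved it from 3 to 4, and the other steps stayed at 0. All calls made without the block passed with it. Of the 22 members lower at 500 min, 19 had under 30 counts at 180 min. Promoter and protein features were not run.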
